A study of Mus musculus with 8 samples.

Results

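The unfolded protein response was examined in islets of aged mice through 35 of its genes: the sensors of the endoplasmic reticulum (ER), the transcription factors they act through, the chaperones and folding enzymes of the ER lumen, the machinery of ER-associated degradation, targets of ATF4 and CHOP, and wolframin. The rule that picked them is a list of names and uses no measured value, though the list was drawn up with earlier results of these data known. All 35 were found among the 53012 genes of the count table, and all 35 were abundant enough to be tested among 15474 genes. Bulk RNA-seq had been done on the islets of 8 mice, all 17 months old, and every mouse gave its own library. Both groups were homozygous for an Igf1r allele with loxP sites around exon 3. The 4 βIgf1r mice, the controls, lacked Cre (Ins1-CreERT2 -/-) and received corn oil, whereas the 4 βIgf1rKD mice carried 1 copy of the tamoxifen-activated recombinase (Ins1-CreERT2 +/-) and received 5 daily injections of tamoxifen at 0.075 mg/g. The islets were taken 7 days after injections ended. Cre and tamoxifen were present in βIgf1rKD mice alone, so their effects and that of the Igf1r deletion cannot be told apart. The Cre is active in β-cells, and other cells of the islet keep the intact allele. Males and females were in both groups, and the labels do not give the sex of single mice. The βIgf1r mice were M148, M151, M152 and M153 and the βIgf1rKD mice M145, M146, M149 and M150, and values for single mice are given in this order. The comparison asked whether decreased IGF1R signaling in aged β-cells went along with another level of the ER stress program.

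Secretory cells such as β-cells fold large amounts of protein in the ER, and unfolded protein there is sensed by IRE1α, PERK and ATF6, which the chaperone BiP holds inactive. IRE1α splices Xbp1 mRNA, PERK phosphorylates eIF2α and so favours translation of ATF4, and ATF6 is cleaved into a transcription factor. Together they raise the transcription of chaperones and degradation genes, and under lasting stress that of CHOP and its targets. Much of this control is on splicing, translation and cleavage, which gene-level RNA counts do not show: spliced and unspliced Xbp1 are counted together.

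Total counts lay between 21633925 and 42391106 per mouse, and no library was a copy of another. Igf1r, the targeted gene, was at 46.8, 47.98, 60.9 and 58.7 CPM (counts relative to library size after TMM scaling) in βIgf1r mice and 46.9, 50.2, 57.9 and 47.8 CPM in βIgf1rKD mice, a log2 fold change of -0.08 (SE 0.11, adjusted p = 0.988) that became 0.023 with Xist as covariate. The groups overlapped. Gene counts do not separate its exon 3, so this is no check of the deletion. Islet markers were abundant in every library: 10 β-cell markers summed to 127748 to 203501 CPM. RNA of exocrine acinar cells was present too. The share of counts in 12 acinar markers was 2.01% to 14.6% among βIgf1r libraries and 4.18% to 16.8% among βIgf1rKD libraries. All 12 had a higher mean in the latter, with a median log2 fold change of 0.88 and none passing the test. The 11 endothelial markers summed to 494 to 620 CPM in βIgf1r mice and 439 to 493 CPM in βIgf1rKD mice. In these bulk libraries fewer cells of a type and less RNA per cell cannot be told apart.

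Promoters of the unfolded protein response can carry elements that ATF6, XBP1 and ATF4 are known to bind. The matches in the 250 bases before the RefSeq gene start (GRCm38.p6) are shown because they sort the genes by the element they hold. Of the 35 genes 31 had an entry. Searched on both strands were the ER stress response element ERSE (CCAAT, 9 free bases, CCACG), ERSE-II (ATTGG, 1 free base, CCACG), the core of the unfolded protein response element UPRE (TGACGTG) and the C/EBP-ATF response element CARE (TGATG, 1 free base, AA). ERSE was found in 9 of the 31 genes and in 0.113% of all 32851 promoter windows, and 1 gene, Hsp90b1, held 2 copies. In the ERSE matches below, capitals mark the fixed letters of the motif, 5 bases are shown on either side, and each is read 5′ to 3′ on the strand of its gene.
Hspa5 ERSE, chr2:34772020-34772048, plus strand: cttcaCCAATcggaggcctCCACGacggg
Hsp90b1 ERSE, chr10:86705633-86705661, minus strand: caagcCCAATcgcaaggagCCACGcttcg
Hsp90b1 ERSE, chr10:86705528-86705556, minus strand: gagtgCGTGGtgaggcacgATTGGtgagt
Dnajc3 ERSE, chr14:118937822-118937850, plus strand: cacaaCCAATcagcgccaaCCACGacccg
Creld2 ERSE, chr15:88819515-88819543, plus strand: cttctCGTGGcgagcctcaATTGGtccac
Calr ERSE, chr8:84847070-84847098, minus strand: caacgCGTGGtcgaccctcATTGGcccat
Canx ERSE, chr11:50325795-50325823, minus strand: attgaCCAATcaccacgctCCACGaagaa
Pdia6 ERSE, chr12:17266486-17266514, plus strand: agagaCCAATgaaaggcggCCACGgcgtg
Derl3 ERSE, chr10:75893237-75893265, plus strand: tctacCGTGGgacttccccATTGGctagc
Syvn1 ERSE, chr19:6046527-6046555, plus strand: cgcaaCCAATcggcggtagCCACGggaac

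Hspa5, which encodes BiP, also held the UPRE core, which 1.65% of windows held. CARE was found in 4 genes, Atf3, Chac1, Asns and Herpud1, and in 3.45% of windows. ERSE-II was found in Herpud1, and in 0.0304% of windows. Capitals mark the fixed letters in these matches too.
Hspa5 UPRE core, chr2:34771928-34771944, plus strand: agcaaTGACGTGagttg
Atf3 CARE, chr1:191183431-191183448, minus strand: cgcacTTgCATCAccaag
Chac1 CARE, chr2:119351044-119351061, plus strand: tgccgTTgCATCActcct
Asns CARE, chr6:7693220-7693237, minus strand: ccacaTGATGaAActtcc
Herpud1 CARE, chr8:94386312-94386329, plus strand: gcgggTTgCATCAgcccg
Herpud1 ERSE-II, chr8:94386372-94386392, plus strand: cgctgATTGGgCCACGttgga

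Herpud1 and Derl3 encode proteins of the same degradation pathway but differ in the elements matched inside their windows, which are shown whole. The Herpud1 window ends in CCAAT, 9 free bases and CCAC, an ERSE without its last letter. The base past the window edge was not searched. Capitals here mark whole motifs with their free bases: CARE and then ERSE-II in Herpud1, and ERSE in Derl3.
Herpud1, chr8:94386179-94386428, plus strand: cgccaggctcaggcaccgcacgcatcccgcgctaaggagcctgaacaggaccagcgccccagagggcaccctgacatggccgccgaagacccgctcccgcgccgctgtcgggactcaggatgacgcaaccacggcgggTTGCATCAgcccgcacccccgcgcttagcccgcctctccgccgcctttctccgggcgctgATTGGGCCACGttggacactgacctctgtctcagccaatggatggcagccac
Derl3, chr10:75893148-75893397, plus strand: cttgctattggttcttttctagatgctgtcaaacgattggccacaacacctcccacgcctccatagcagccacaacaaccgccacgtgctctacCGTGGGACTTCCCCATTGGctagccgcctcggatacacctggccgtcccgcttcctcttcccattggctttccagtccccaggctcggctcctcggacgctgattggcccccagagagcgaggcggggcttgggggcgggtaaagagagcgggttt
The ERSE match of Hspa5 and the CARE match of Asns lie inside exons of the GENCODE M21 annotation, whereas the other matches lie outside exons. Sel1l and Edem1, described further on for their spread, had no match to any of the 4 motifs. A match of letters is a description and no measurement of binding.

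Levels of different genes were compared per kb of exon. Hspa5 (ENSMUSG00000026864; chr2:34771970-34777547, plus strand) had the highest level of the 35 genes in βIgf1r mice, at 420.2 ± 47.4 CPM per kb (SD, n = 4). It was followed by P4hb, a protein disulfide isomerase, at 396 ± 63.7 CPM per kb, by Pdia3, the isomerase that works with calnexin and calreticulin, at 340.1 ± 40.1 CPM per kb, by Hsp90b1, which encodes GRP94, at 329 ± 14.9 CPM per kb, and by the lectin chaperone Calr at 317 ± 33.1 CPM per kb. Each of these means lay within 1 SD of the next. All 5 are luminal folding proteins.

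At the other end stood Ddit3, Chac1, Derl3, Trib3 and Atf3. The transcription factors Xbp1 and Atf4 stood higher, at 94.4 ± 6.71 and 70.3 ± 9.14 CPM per kb in βIgf1r mice. Ddit3, which encodes CHOP, was at 10.3 ± 1.72 CPM per kb, Chac1, a glutathione-degrading enzyme, at 9.31 ± 2.16 CPM per kb, and the degradation factor Derl3 at 8.78 ± 3.67 CPM per kb. Trib3, a pseudokinase induced by CHOP, was at 2.22 ± 0.549 CPM per kb and the transcription factor Atf3 at 0.434 ± 0.0319 CPM per kb in βIgf1r mice. The sensors lay low in the order as well: Ern1, encoding IRE1α, was at 15.9 ± 1.36, Atf6 at 15.5 ± 0.420 and Eif2ak3, encoding PERK, at 13.98 ± 2.86 CPM per kb. Ddit3, Chac1 and Derl3 lay within 1 SD of their neighbour, as did Ern1 and Atf6, whereas Trib3 lay below Derl3 and Atf3 below Trib3 by more than 1 SD.

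**Figure D1:**
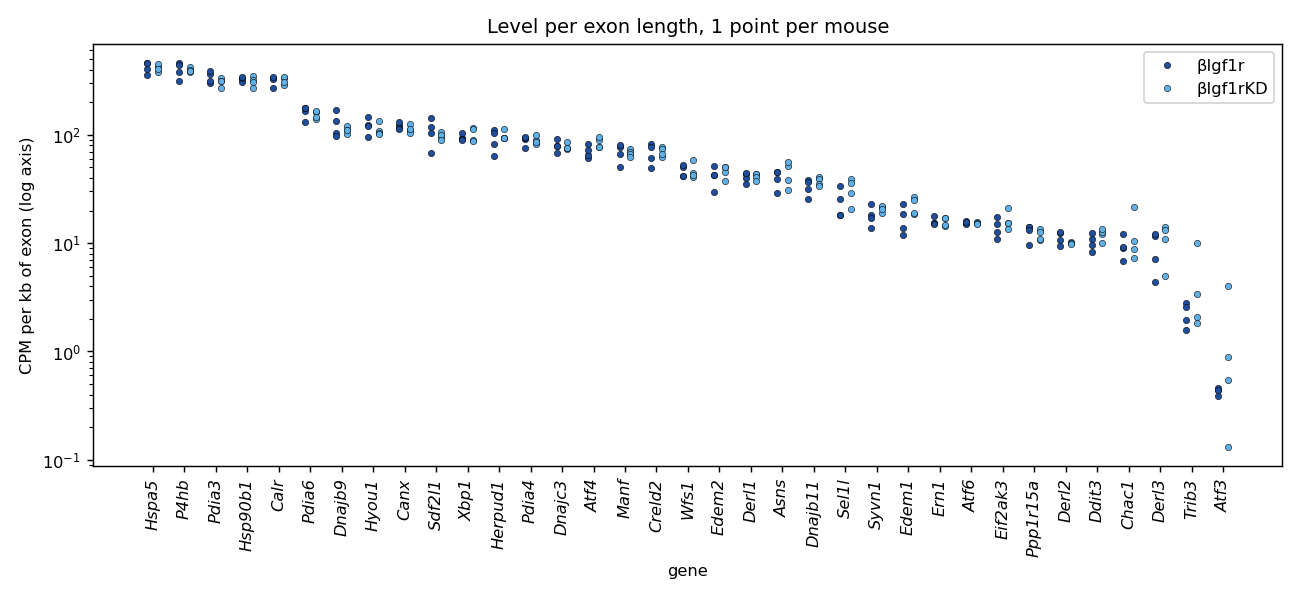
Level of each of the 35 genes in CPM per kb of exon on a log axis, ordered by the mean of the βIgf1r mice, with 1 point per mouse and the 2 groups side by side. Points of the groups lie on top of each other for most genes, and Trib3 and Atf3 at the low end have 1 βIgf1rKD mouse far above the rest.

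Between the groups, none of the 35 genes passed the test. No gene among all 15474 had an adjusted p under 0.05 (0% called, smallest adjusted p = 0.948), and the smallest among the 35 was 0.987. At an unadjusted p under 0.05 none of the 35 was called, against 4.12% of all genes, and none had groups without overlap, against 2.22%. Higher means in βIgf1rKD mice were found for 19 genes and lower means for 16, with 52.3% of all genes higher, and 16 of the 35 turned direction under at least 1 of 14 alternatives. The median log2 fold change of the 35 was 0.01, equal to the 0.01 of all genes at this precision, and single values ran from -0.19 for Dnajb9 to 1.66 for Atf3. For 12 of the 35 the log2 fold change was larger than its standard error. With 4 mice per group, none of the 35 differences passing the test does not show that the levels were equal.

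**Figure D2:**
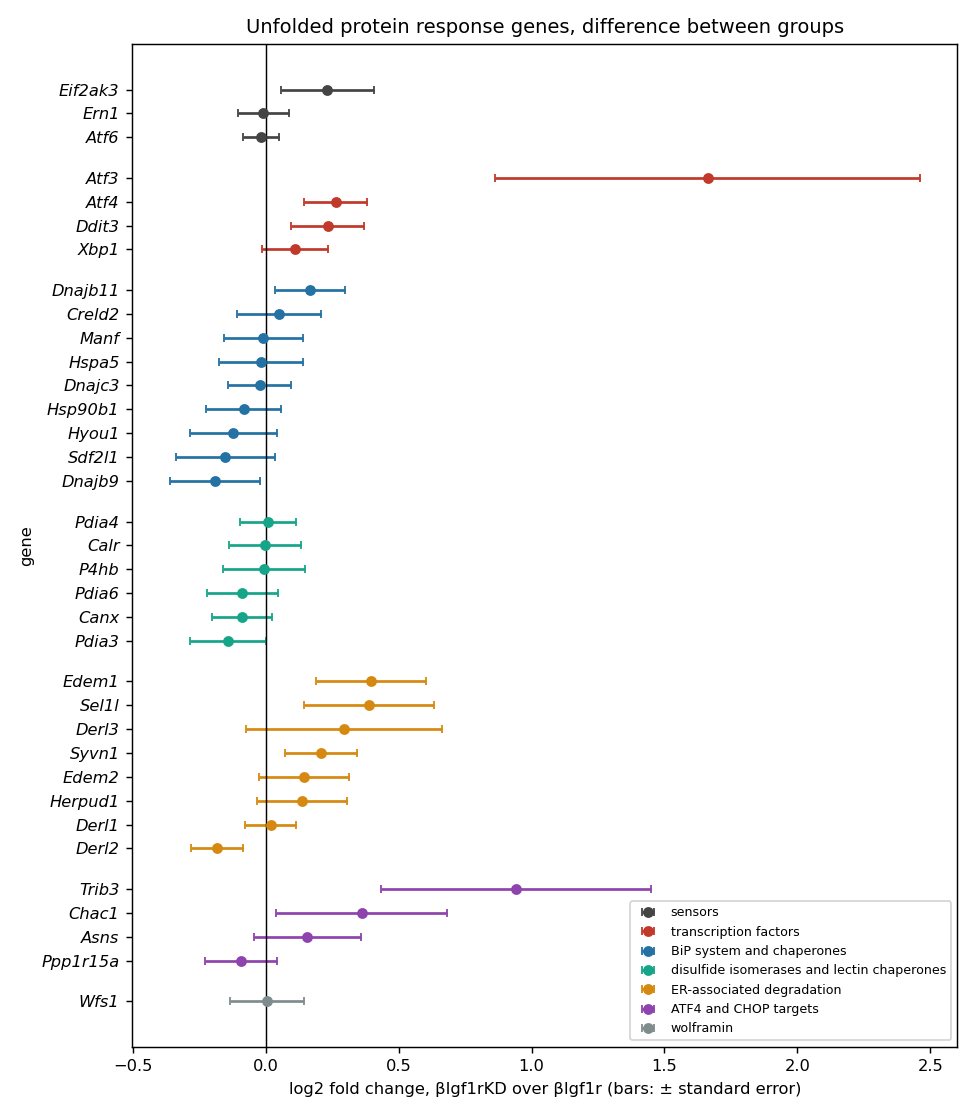
Log2 fold change of βIgf1rKD over βIgf1r mice with its standard error, for the 35 genes grouped by role. Most points lie within 0.25 of 0, and the widest bars belong to Atf3 at 1.66 and Trib3 at 0.94.

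Of the sensors, 1 had a higher and 2 a lower mean in βIgf1rKD mice, with a median log2 fold change of -0.01. Ern1 (ENSMUSG00000020715) was at 126, 125, 146.8 and 123 CPM in βIgf1r mice and 118, 140.3, 139 and 120.4 CPM in βIgf1rKD mice. Its groups overlapped, with a log2 fold change of -0.01 (SE 0.10). Atf6 was at 146.9, 143, 138 and 144 CPM in βIgf1r mice and 144, 141, 141 and 139 CPM in βIgf1rKD mice. This gene varied least of the 35, by 1.07-fold from the lowest to the highest of the 8 mice, and its log2 fold change was -0.02 (SE 0.07). Eif2ak3 was at 76.3, 65.1, 105 and 90.7 CPM in βIgf1r mice and 93.1, 93.3, 128 and 81.2 CPM in βIgf1rKD mice. M149 was the highest and M151 the lowest mouse, the groups overlapped, and the log2 fold change was 0.23 (SE 0.17, adjusted p = 0.987). It was 0.08 without M149, 0.13 without M151 and 0.35 without M152. With the acinar share in the fit it was 0.08, and with Xist as covariate 0.43.

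All 4 transcription factors had a higher mean in βIgf1rKD mice, with a median log2 fold change of 0.25. None passed the test, and none of the 4 turned direction in the 14 alternatives. Atf4 (ENSMUSG00000042406; chr15:80255184-80257541, plus strand), the factor that PERK signaling brings into translation, was at 144, 155, 172 and 193 CPM in βIgf1r mice and 209, 224, 180.1 and 182 CPM in βIgf1rKD mice. M146 and M145 lay above every βIgf1r mouse, while M149 and M150 lay below the highest of them, M153. The log2 fold change was 0.26 (SE 0.12, adjusted p = 0.987), and it ran from 0.20 to 0.34 as each mouse was left out. Ddit3 (ENSMUSG00000025408), the pro-apoptotic factor CHOP, was at 14.2, 16.6, 21.1 and 18.5 CPM in βIgf1r mice and 20.9, 21.6, 23.1 and 17.3 CPM in βIgf1rKD mice. M148 was the lowest and M149 the highest mouse, the groups overlapped, and the log2 fold change was 0.23 (SE 0.14, adjusted p = 0.987). It was 0.14 without M148, 0.33 without M152, 0.13 with the acinar share in the fit and 0.31 with Xist as covariate. Xbp1, the factor whose mRNA is spliced by IRE1α, was at 303, 295, 290.1 and 338 CPM in βIgf1r mice and 377, 293, 369 and 284 CPM in βIgf1rKD mice. Of the βIgf1rKD mice M145 and M149 lay above all βIgf1r mice and M150 below them, and the log2 fold change was 0.11 (SE 0.12).

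Atf3 (ENSMUSG00000026628; chr1:191170296-191218039, minus strand), an immediate stress factor downstream of ATF4, was at 0.958, 0.837, 0.997 and 0.948 CPM in βIgf1r mice and 1.17, 0.286, 8.58 and 1.92 CPM in βIgf1rKD mice, on 36, 23, 28, 20, 25, 8, 197 and 78 counts in the same order. The βIgf1r mice were tightly together. The βIgf1rKD mice held both the lowest value, in M146, and the highest, in M149, and spanned 30.0-fold. M145, M149 and M150 lay above every βIgf1r mouse. The size of the log2 fold change, 1.66 (SE 0.80, adjusted p = 0.987), rested largely on M149: it was 0.28 without M149, and 2.04 without M146. M149 also had the highest summed level of 6 macrophage and leukocyte markers, 148.7 CPM against 38.1 to 116 CPM in the other mice, of 7 stellate and fibroblast markers, 357 CPM against 107 to 213 CPM, and of 6 ductal markers, 281 CPM against 179.7 to 227 CPM. Ptprc, Rgs5 and Krt7 were not highest in M149, at 5.70, 84.2 and 139 CPM. They reached 19.9 CPM in M151, 126 CPM in M153 and 194 CPM in M146, respectively. The other tested markers of these lists were highest in M149. Of these lists no marker was at 0 in any mouse, and their part in the value of Atf3 was not tested. M149 had the highest acinar share as well, and with that share in the fit the log2 fold change of Atf3 was 0.68 (SE 1.05), beside a slope on the share of 0.63 (SE 0.43, adjusted p = 0.999). With limma-voom the log2 fold change was 0.68.

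The BiP system, with 9 genes, had 2 higher and 7 lower means and a median log2 fold change of -0.02, and Hspa5, Dnajc3, Sdf2l1, Manf and Creld2 turned direction in at least 1 alternative. Hspa5 was at 1729, 1513, 1938 and 1928 CPM in βIgf1r mice and 1808, 1908, 1592 and 1716 CPM in βIgf1rKD mice. Its highest mouse M152 and its lowest M151 were both βIgf1r mice, and the log2 fold change was -0.02 (SE 0.16, adjusted p = 0.9996). Hsp90b1 (ENSMUSG00000020048) was at 1332, 1245, 1339 and 1389.8 CPM in βIgf1r mice and 1406, 1297, 1078 and 1229.5 CPM in βIgf1rKD mice. M149 was the lowest mouse here, and the groups overlapped with a log2 fold change of -0.08 (SE 0.14, adjusted p = 0.988). The other 7 genes of this set ranged from -0.19 for Dnajb9, a BiP co-chaperone that restrains IRE1α, to 0.17 for the co-chaperone Dnajb11. The value of Dnajb9 was -0.02 without M153, its highest mouse at 431 CPM, and -0.29 without M152, while that of Dnajb11 was 0.06 without M151 and 0.10 with the acinar share in the fit. Sdf2l1, a partner of the ER DnaJ proteins, had means of 119.9 ± 33.9 CPM in βIgf1r mice and 108 ± 7.03 CPM in βIgf1rKD mice (SD, n = 4 each), and its βIgf1r mice held both extremes. Hyou1, the nucleotide exchange factor of BiP, had a log2 fold change of -0.12 (SE 0.16), and those of Dnajc3, Manf and Creld2 were -0.02, -0.01 and 0.05.

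Disulfide isomerases and lectin chaperones, which form and check the bonds of nascent glycoproteins, had 1 higher and 5 lower means. None of these 6 differed by more than its standard error, the median log2 fold change was -0.05, and P4hb, Pdia4 and Calr turned direction in at least 1 alternative. Pdia3 had the widest difference, -0.14 (SE 0.14), with 1068 ± 126 CPM in βIgf1r mice and 969 ± 85.2 CPM in βIgf1rKD mice (SD, n = 4 each). The values of P4hb, Pdia4, Pdia6, Calr and Canx were -0.01, 0.01, -0.09, -0.0029 and -0.09. The 9 genes with an ERSE match, most of them chaperones and isomerases, had a median log2 fold change of -0.02, with 3 higher and 6 lower. That of the 22 genes with a window and no ERSE match was 0.14.

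ER-associated degradation returns misfolded proteins to the cytosol for the proteasome. Its 8 genes had 7 higher means and 1 lower in βIgf1rKD mice, with a median log2 fold change of 0.18. None passed the test, and Herpud1, Derl1 and Derl3 turned direction in at least 1 alternative. Of the slopes of these 8 genes on the acinar share 6 were positive, against 6677 of 15474 over all genes. An unadjusted p under 0.05 was found for 3 of them, against 4.43% of all genes. The slopes of all 4 ATF4 and CHOP targets and of all 4 transcription factors were positive as well. With the share in the fit the log2 fold change was 0.17 for Edem1, 0.07 for Sel1l, 0.01 for Herpud1 and 0.04 for Edem2. Edem1, a mannosidase-like lectin that selects glycoproteins for degradation, was at 89.5, 77.4, 147.98 and 121 CPM in βIgf1r mice and 171, 119.8, 159.8 and 123 CPM in βIgf1rKD mice, a log2 fold change of 0.40 (SE 0.21, adjusted p = 0.987). Sel1l, the adaptor of the ubiquitin ligase HRD1, was at 154, 156, 287 and 218 CPM in βIgf1r mice and 332, 177, 309 and 249 CPM in βIgf1rKD mice, a log2 fold change of 0.39 (SE 0.25, adjusted p = 0.987). In both genes M145 and M149 lay above all βIgf1r mice, and the other βIgf1rKD mice lay among them. The value of Edem1 was 0.26 without M151 and 0.59 with Xist as covariate, and that of Sel1l 0.60 without M152. Syvn1, which encodes HRD1 itself, had 87.3 ± 17.9 CPM in βIgf1r mice and 101 ± 6.15 CPM in βIgf1rKD mice (SD, n = 4 each) and a log2 fold change of 0.21 (SE 0.14), which was 0.10 without M151 and 0.34 without M152.

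Herpud1 (ENSMUSG00000031770), a scaffold of the HRD1 complex, was at 191, 147.2, 257 and 244 CPM in βIgf1r mice and 265, 219, 218 and 220.1 CPM in βIgf1rKD mice. The βIgf1r mouse M151 was far below the rest, M145 was the highest, and the log2 fold change of 0.14 (SE 0.17) was -0.00074 without M151. With Xist as covariate it was 0.27. Derl3, a derlin of cells with heavy secretion, was at 14.2, 8.73, 23.03 and 23.98 CPM in βIgf1r mice and 28.02, 9.96, 26.2 and 21.6 CPM in βIgf1rKD mice. M151 and M146 were low and the groups overlapped. Derl3 had a log2 fold change of 0.29 (SE 0.37), which turned to -0.18 with the acinar share in the fit and was 0.68 with Xist as covariate. Its paralogs Derl1 and Derl2 had log2 fold changes of 0.02 and -0.18 (SE 0.10), and Edem2 had 0.14. Derl2 was the 1 gene of this set with a lower mean, and its βIgf1rKD mice lay together at 81.7, 80.3, 79.97 and 78.6 CPM.

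Among the targets of ATF4 and CHOP, Trib3 differed between mice by 6.31-fold and Chac1 by 3.15-fold. Trib3 (ENSMUSG00000032715; chr2:152337422-152344032, minus strand) was at 5.91, 3.35, 5.41 and 4.17 CPM in βIgf1r mice and 7.20, 3.86, 21.1 and 4.39 CPM in βIgf1rKD mice. M149 was again far above all others, M145 was above the βIgf1r mice as well, and M146 and M150 lay among them. The log2 fold change of 0.94 (SE 0.51, adjusted p = 0.987) became 0.12 without M149, 0.52 (SE 0.61) with the acinar share in the fit and 0.49 with limma-voom. With Xist as covariate it was 1.20. The macrophage, stellate and ductal marker sums that were highest in M149 are those given with Atf3. Chac1 was at 14.9, 11.2, 15.1 and 19.8 CPM in βIgf1r mice and 35.2, 11.8, 17.1 and 14.4 CPM in βIgf1rKD mice. Here another mouse stood apart: M145 was the highest, and the log2 fold change of 0.36 (SE 0.32) became -0.08 without it. It was 0.24 without M151, 0.10 with the acinar share in the fit, 0.41 with Xist as covariate and 0.23 with limma-voom. Asns, asparagine synthetase, was at 107, 79.6, 123 and 125 CPM in βIgf1r mice and 142, 85.2, 151.7 and 105 CPM in βIgf1rKD mice. Its log2 fold change of 0.16 (SE 0.20) turned to -0.07 with the acinar share in the fit and was 0.36 with Xist as covariate. Ppp1r15a, which encodes GADD34, the phosphatase subunit that reverses eIF2α phosphorylation, had 37.3 ± 6.36 CPM in βIgf1r mice and 35.01 ± 3.93 CPM in βIgf1rKD mice (SD, n = 4 each) and a log2 fold change of -0.09 (SE 0.13). The 4 genes with a CARE match, Atf3, Chac1, Asns and Herpud1, all had higher means, and none passed the test. Over all genes 52.3% had higher means. The median log2 fold change of the 4 was 0.26, against 0.0054 in the 27 genes with a window and no CARE match. Chac1 and Herpud1 did not keep the higher mean without M145 and without M151, respectively, nor Asns with the acinar share in the fit.

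**Figure D3:**
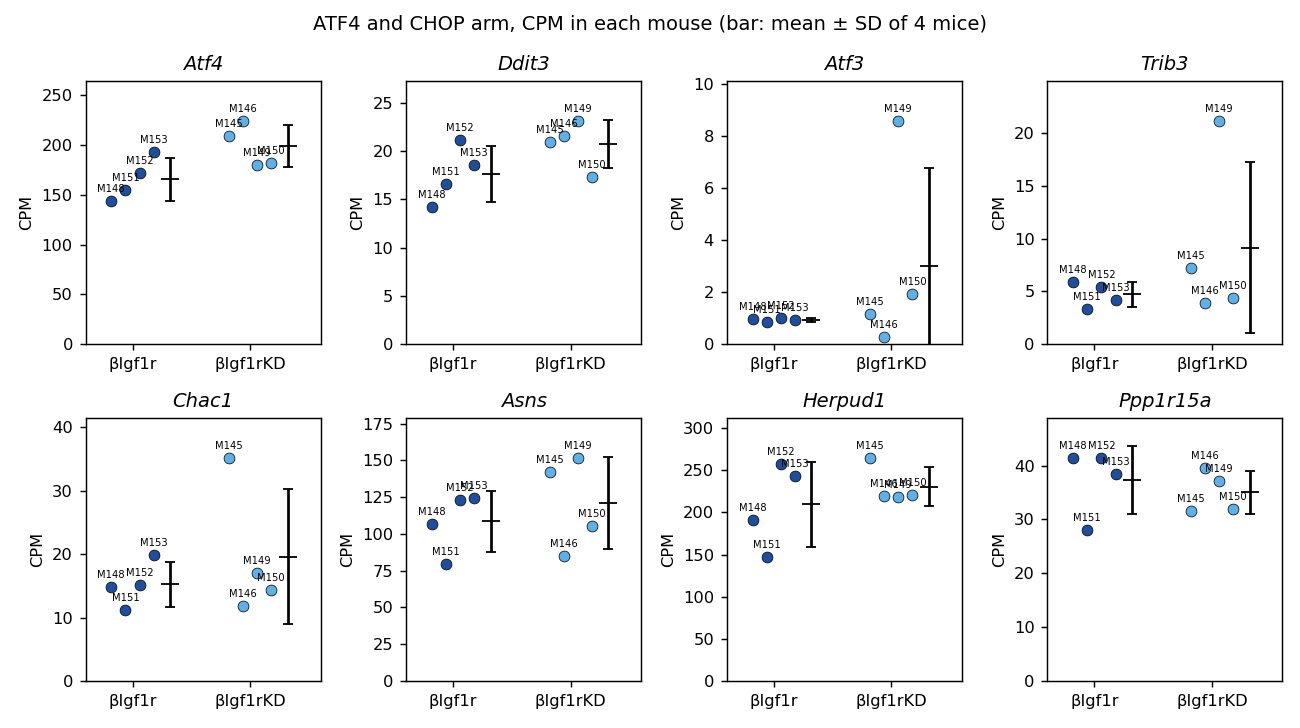
CPM of 8 genes of the ATF4 and CHOP arm in each of the 8 mice, by group, with the mean and SD of 4 mice beside the points and the CPM axis from 0, where the lower SD bar of Atf3 in βIgf1rKD mice ends. M149 stands apart in Atf3 and Trib3, at 8.58 and 21.1 CPM, and M145 in Chac1 at 35.2 CPM, while Atf4 and Ddit3 differ between the mice by 1.56-fold and 1.62-fold.

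Wfs1 (ENSMUSG00000039474), an ER membrane protein whose loss causes Wolfram syndrome with β-cell failure, was at 191, 159, 199 and 158 CPM in βIgf1r mice and 154, 223, 169.6 and 162 CPM in βIgf1rKD mice. M146 was the highest and M145 the lowest mouse, both βIgf1rKD, and the log2 fold change was 0.01 (SE 0.14).

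A further difference lay between single mice. Across the 35 genes, the median of log2 CPM relative to each gene's mean over the 8 mice was -0.26 in M151, and between -0.06 and 0.14 in the other 7 mice. In M151 it was -0.54 over the degradation genes, -0.52 over the ATF4 and CHOP targets, -0.26 over the BiP system, -0.21 over the transcription factors and -0.05 over the sensors. Other mice were low in single sets, with -0.43 in M146 over the ATF4 and CHOP targets and -0.33 in M148 over the transcription factors. M151 also had the highest summed level of the 6 α-cell markers, 40222 CPM against 12871 to 30459 CPM. Of these 6, Irx1 was not highest in M151, at 12.1 CPM against 12.4 CPM in M150. The sum of the 4 markers of δ- and PP-cells was highest in M151 too, 6994 CPM against 3212 to 5550 CPM. So was that of the 6 plasma and B cell markers, 1442 CPM against 30.9 to 516 CPM. None of these markers was at 0 in all mice, though Tnfrsf17 was at 0 in some. Their part in the low values was not tested. M151 is a βIgf1r mouse, and without it the median log2 fold change of the 35 genes was -0.04 in place of 0.01. Other alternatives moved this median upward, to 0.07 without M152 and 0.09 with Xist as covariate.

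**Figure D4:**
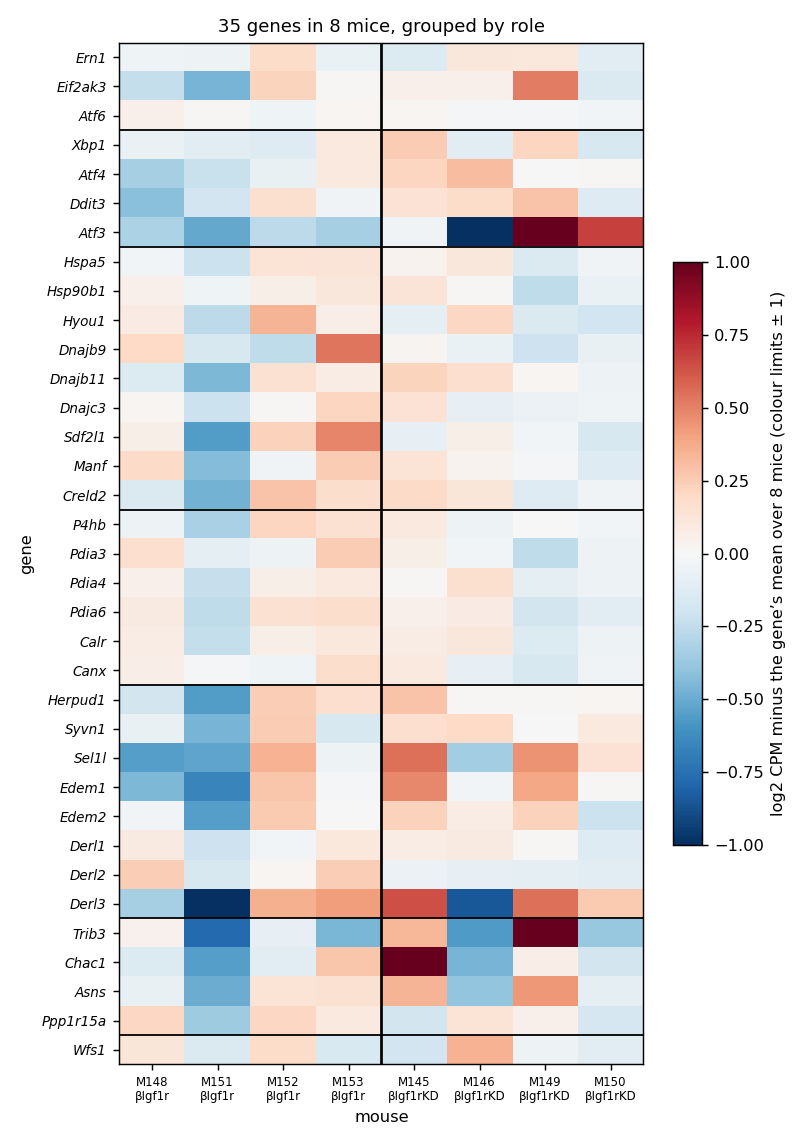
Log2 CPM of each gene minus its mean over the 8 mice, with genes in rows grouped by role, mice in columns and the groups separated by the vertical line; colours stop at 1 on either side. The column of M151 is low in nearly every block, the rows of Sel1l, Edem1 and Derl3 follow another order of the mice, and in the βIgf1rKD mice Trib3 is darkest red in M149, Chac1 in M145, and Atf3 in M149 with its darkest blue in M146.

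The 5 mice with the lowest acinar shares had the same order in Sel1l, and the relation to this share was tested across all genes in a fit with group. Of 15474 genes 158 (1.02%) were associated with the acinar share at an adjusted p under 0.05, including the 12 markers that define it. Sel1l was the 1 such gene among the 35. It had a slope of 0.36 (SE 0.06, adjusted p = 0.0184), as log2 change per doubling of the share. The 3 mice with the lowest shares, M148, M151 and M146, had 154, 156 and 177 CPM, and the 3 with the highest, M145, M152 and M149, had 332, 287 and 309 CPM. Both groups were among the low and among the high mice. The slope ran from 0.33 to 0.42 as each mouse was left out, and the call was lost without M151, M152, M146 or M149, with adjusted p = 0.0569, 0.140, 0.100 and 0.0515. With the share in the fit, the log2 fold change of Sel1l between the groups was 0.07 in place of 0.39.

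At an unadjusted p under 0.05, 5 of the 35 genes were associated with the share, against 4.43% of all genes, and all 5 were positive, against 3.75% of all genes. Besides Sel1l these were Edem1 with a slope of 0.27 (SE 0.06, adjusted p = 0.159), Derl3 with 0.48 (SE 0.12, adjusted p = 0.228), Asns with 0.22 (SE 0.08, adjusted p = 0.749) and Eif2ak3 with 0.17 (SE 0.07, adjusted p = 0.999). None of these 4 passed the adjusted threshold. Edem1 did so where group was left out of the fit, with a slope of 0.30, and Derl3 without M148, with a slope of 0.74. Over all 35 genes 26 slopes were positive and 9 negative, with a median of 0.05, whereas 6677 of all 15474 genes had a positive slope and the median was -0.01.

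The 4 genes with the smallest p among negative slopes were Wfs1 with -0.07 (SE 0.07, adjusted p = 0.999), Atf6 with -0.02 (SE 0.04, adjusted p = 0.999), Pdia3 with -0.03 (SE 0.07, adjusted p = 0.999) and Dnajb9 with -0.02 (SE 0.09, adjusted p = 0.999), none of them called. Slopes of the major chaperones lay near 0, with 0.03 for Hspa5, -0.0026 for Hsp90b1 and -0.0025 for Calr. Atf4 had a slope of 0.03, and its log2 fold change between the groups was 0.24 with the share in the fit and 0.26 without.

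**Figure D5:**
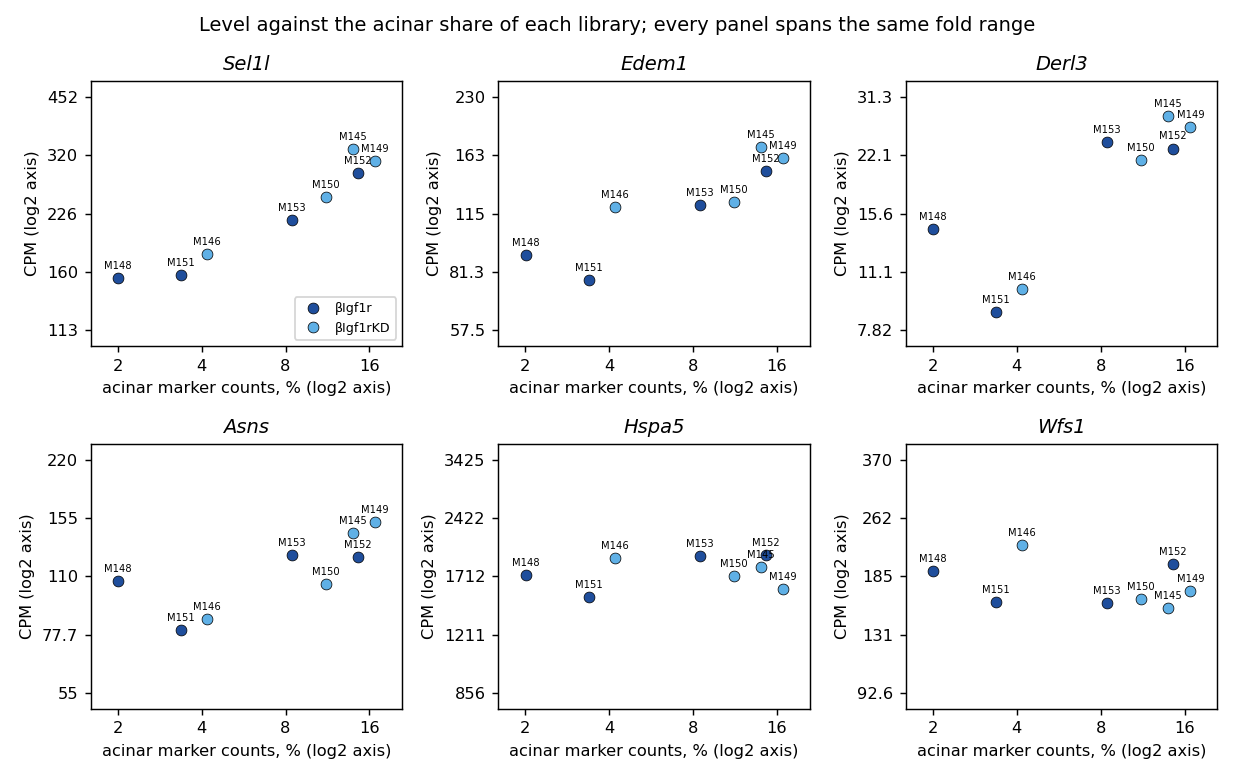
CPM of 6 genes (log2 axis, the same fold range in each panel) against the percent of counts in 12 acinar markers (log2 axis), with 1 point per mouse coloured by group. Sel1l, Edem1 and Derl3 are higher in the mice with acinar shares of 8.44% and more than in those with 4.18% and less, except that Edem1 is alike in M146 and M153, whereas Hspa5 and Wfs1 show no such order.

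Pairs of genes were followed across the 8 mice in 3 chosen cases. Hspa5 and Hsp90b1, the major luminal chaperones, had r = 0.68 (exact permutation p = 0.0817, adjusted 0.245 over 3 pairs) and rho = 0.71 (exact permutation p = 0.0576, adjusted 0.173), and r was 0.44 without M149 and M151, the 2 mice farthest from the median of Hspa5. Ddit3 and its target Trib3 had r = 0.48 (exact permutation p = 0.181, adjusted 0.271) and rho = 0.31 (exact permutation p = 0.462, adjusted 0.501), with r = 0.64 without M148 and M151. Hspa5 and Ddit3 had r = 0.28 (exact permutation p = 0.483, adjusted 0.483) and rho = 0.29 (exact permutation p = 0.501, adjusted 0.501), with r = 0.71 without M149 and M151. None of the 3 relations passed the test. With the group means removed r was 0.71, 0.33 and 0.37.

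The wider pathway was read from 5 further lists, none of whose genes passed the adjusted test between the groups. Of 26 other folding and redox genes 12 were higher and 14 lower. The smallest p upward was that of the cyclophilin Ppib, with 0.32 (SE 0.21), and downward that of the testis chaperone Clgn, with -0.89 (SE 0.39) at levels under 1 CPM. The 20 other degradation genes were 10 higher and 10 lower, led by Aup1 with 0.19 (SE 0.15) and by the ubiquitin ligase Marchf6 with -0.18 (SE 0.08). Marchf6 was the 1 gene of these 20 with groups without overlap, against 2.22% of all genes. It had 129.15 to 146.1 CPM in βIgf1r mice against 118 to 129.02 CPM in βIgf1rKD mice. Translocation genes, which bring nascent proteins into the ER, were 3 higher and 19 lower with a median log2 fold change of -0.07, against 0.01 over all genes. Their extremes by p were Sec11a with 0.08 (SE 0.09) and Rpn1 with -0.14 (SE 0.11).

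Of 31 other ATF4 targets 21 were higher and 10 lower, with a median log2 fold change of 0.11. Their slopes on the acinar share were positive in 29 of 31, with 10 at an unadjusted p under 0.05. Over all genes 6677 of 15474 slopes were positive, and 4.43% of genes had such a p. The hormone gene Fgf21 was at 0.905, 1.64, 4.56 and 2.09 CPM in βIgf1r mice and 11.98, 2.29, 6.01 and 4.64 CPM in βIgf1rKD mice, a log2 fold change of 1.44 (SE 0.57) with adjusted p = 0.987, beside a slope on the share of 0.81 (adjusted p = 0.0820). M145 was the highest mouse, as in Chac1, M149 and M150 lay above the βIgf1r mice, and M146 lay among them. Downward the smallest p was that of the amino acid transporter Slc7a5, with -0.11 (SE 0.14). Of 23 kinases, proteases and stress regulators tested 15 were higher and 8 lower, with Ppp1r15b, the constitutive eIF2α phosphatase subunit, at 0.13 (SE 0.07) and Txnip at -1.12 (SE 0.53). Txnip, a regulator of thioredoxin that glucose induces in β-cells, was at 1138, 202, 625 and 899 CPM in βIgf1r mice and 578, 150.8, 355 and 231 CPM in βIgf1rKD mice, with overlapping groups and M151 as the lowest βIgf1r mouse. Ern2, the IRE1 paralog, was too low to be tested.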

How the data were processed

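Bulk RNA-seq of islets was analysed for 4 βIgf1r and 4 βIgf1rKD mice. Groups and mouse numbers came from the sample labels, and ages and treatments from the study's methods, which give the Cre driver as a rat insulin promoter while the genotype is written Ins1-CreERT2. The authors deposited estimated counts per gene and mouse from stranded mRNA libraries, not scaled between mice. Between 12.4% and 14.7% of the values of a mouse were not whole. The submitters' processing notes name fastp, kallisto and GRCm38. Their versions, the transcript annotation and the summing to genes are not given in the sources used here. Pseudoalignment divides reads between similar transcripts, so that genes sharing sequence can trade counts. Exons of Hsp90b1 and Eif2ak3 overlap genes on the opposite strand over 10.3% and 8.05% of their length, and whether the counting used strand is not given in the sources used here.

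The estimated counts were rounded. Of 53012 identifiers 51906 were matched to a symbol, and 200 share one. Ddit3 has 2 identifiers, of which 1 is at 0 in all mice and the other was used. Exons and positions are those of GENCODE M21 on GRCm38. The filter of edgeR 4.0.16 (R 4.3.3), requiring about 10 counts in 4 mice and a total of 15, kept 15474 genes. The test between groups was edgeR's quasi-likelihood F test after TMM scaling, p-values were adjusted over all genes tested (Benjamini-Hochberg), and the threshold was 0.05. Standard errors came from the fold change and its F statistic. CPM values use TMM factors, and log2 CPM for the pairs a prior count of 2. The acinar share is the log2 percent of counts in 12 markers, tested as a coefficient beside group. The methods name no test for the RNA-seq. Pairs were tested by exact two-sided permutation (scipy 1.17.1, Python 3.11.15). Plots were drawn with matplotlib 3.10.9, and promoter windows are RefSeq's, GRCm38.p6.

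Members and lists were chosen with earlier results of these data known. Values in every mouse are given for sensors, for Xbp1, Atf4, Ddit3, Atf3, Hspa5, Hsp90b1, Herpud1, Derl3, Trib3, Chac1 and Wfs1, and for members at an unadjusted p under 0.05 or with groups that do not overlap. Edem1, Sel1l and Asns were added for their values. For the acinar share the 4 genes with the smallest p in each direction are named, and 1 in each direction for each further list. Alternatives were no filter, DESeq2 1.42.0, voom of limma 3.58.1, RLE factors, the acinar share or Xist as covariate, and each mouse left out. The fits were tested on simulated counts. P-values measure the spread between 4 mice per group, each of them 1 library.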

Additional observations from a re-analysis of the deposited data

Results flagged for a closer look

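In 5 of 70 sets, each of 1 member gene in the 4 mice of 1 group, a single mouse stood apart from the other 3 by a gap that took most of the group's range in log2 CPM, past Dixon's critical value. Chance alone gives about 3.5 of 70. Ern1 was at a log2 CPM of 7.20 in the βIgf1r mouse M152, or 147 CPM against 123 to 126 CPM in the others. Pdia4 and Calr were low in the βIgf1r mouse M151, at log2 CPM of 7.51 and 9.59, or 182 CPM against 221 to 228 CPM and 772 CPM against 946 to 980 CPM. Dnajc3 and Herpud1 were high in the βIgf1rKD mouse M145, at log2 CPM of 8.796 and 8.05, or 445 CPM against 380 to 389 CPM and 265 CPM against 218 to 220 CPM.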

How the results depend on the processing

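No member passed an adjusted p under 0.05 between the groups in any of the 14 alternatives, and the depth of these libraries and 4 mice per group limit what can be seen, most of all for Atf3 with 8 to 197 counts. Over all genes, 8 passed with DESeq2 and 1 with limma-voom, in place of 0. At an unadjusted p under 0.05 the count of genes was 1098 without the filter, 379 with the acinar share and 1143 with Xist as covariate, 701 with DESeq2 and 565 with limma-voom, and 383 to 1114 as each mouse was left out, in place of 637. The count of members was then 1 without the filter (Atf3), 4 with Xist (Atf3, Edem1, Eif2ak3 and Trib3), 3 with DESeq2 (Atf3, Trib3 and Atf4), 1 with limma-voom (Atf4) and 0 to 4 as each mouse was left out, in place of 0. The highest count came without M152 (Sel1l, Syvn1, Ddit3 and Edem1). With the acinar share alone in the fit 239 genes and 2 members were associated with it, and 983 genes and 8 members at an unadjusted p, in place of 685 and 5. As each mouse was left out, 104 to 135 genes and 0 to 2 members were associated, and 538 to 1685 genes at an unadjusted p, with the most without M152. Igf1r had a log2 fold change of 0.023 with Xist as covariate. The direction of a member's log2 fold change was kept in 443 of 490 values and turned in 47, in 16 members. With Xist it was 0.038 for Ern1, 0.0088 for Hspa5, 0.024 for Dnajc3, 0.057 for Sdf2l1, 0.098 for Manf, 0.087 for P4hb, 0.019 for Calr and 0.039 for Ppp1r15a. With limma-voom it was 0.013 for Manf, 0.0070 for P4hb, 0.00025 for Calr and -0.00093 for Wfs1. With the acinar share it was -0.037 for Creld2, -0.18 for Derl3 and -0.070 for Asns. As each mouse was left out it ran from -0.051 to 0.053 for Ern1, -0.087 to 0.027 for Hspa5, -0.092 to 0.046 for Dnajc3, -0.13 to 0.073 for Manf, -0.076 to 0.16 for Creld2, -0.10 to 0.067 for P4hb, -0.061 to 0.043 for Pdia4, -0.076 to 0.041 for Calr, -0.00074 to 0.25 for Herpud1, -0.044 to 0.064 for Derl1, -0.078 to 0.54 for Chac1 and -0.13 to 0.068 for Wfs1. No paired analysis was possible because the groups share no mouse number. The cause of these shifts was not tested.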

Other observations

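Among the genes of the further pathway lists, 4 were associated with the acinar share in edgeR's fit, in which 158 of all 15474 genes (1.02%) were, and they were named because of these values. The 158 include the 12 acinar markers that define the share. Prdx4, the peroxiredoxin of the ER, had a slope of 0.74 (SE 0.08, adjusted p = 0.00129) and was at 14.96, 18.01, 49.5 and 36.6 CPM in βIgf1r mice and 59.7, 16.2, 60.1 and 40.1 CPM in βIgf1rKD mice. Among the 31 other ATF4 targets 29 slopes were positive, and 3 were called: Phgdh, which starts serine synthesis, with 0.62 (SE 0.11, adjusted p = 0.0366), Cth, which makes cysteine, with 1.07 (SE 0.13, adjusted p = 0.00468), and the secreted glycoprotein gene Stc2, with 1.20 (SE 0.20, adjusted p = 0.0256). Phgdh was at 29.1, 19.8, 79.1 and 50.05 CPM in βIgf1r mice and 66.7, 30.4, 91.3 and 44.4 CPM in βIgf1rKD mice. In Prdx4 and Phgdh the mice M148, M151 and M146, whose shares were lowest, lay below all others. Over all genes 6677 of 15474 slopes were positive.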
